A study of Mus musculus with 12 samples.

Results

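The nuclear genes for the subunits of the mitochondrial respiratory chain and of ATP synthase were analysed in RNA from mouse tibia shafts. They were chosen by symbol (Nduf, Sdh, Uqcr, Cox4 to Cox8 and Atp5 names) and had to have at least 10 counts in every one of 12 libraries. Of 47069 genes in the count matrix, 83 symbols matched and 81 genes were kept. These were 36 genes of complex I, 4 of complex II, 8 of complex III, 16 of complex IV and 17 of complex V. The other 2 were Cox8c, with at most 1 count in any library, and Cox7b2, with at most 2, both far below the limit. The lowest counts kept were 12 for Cox8b and 13 for Cox7a1. No expression difference was used to choose the genes.

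Complex I (NADH dehydrogenase) and complex II (succinate dehydrogenase) pass electrons from NADH and succinate to ubiquinone, complex III (cytochrome bc1) passes them on to cytochrome c, and complex IV (cytochrome c oxidase) passes them to oxygen. The proton gradient that this builds across the inner mitochondrial membrane drives complex V (ATP synthase). Most subunits are encoded in the nucleus and a few in mitochondrial DNA (mtDNA), and several subunits of complex IV have a separate isoform that is made mainly in heart and skeletal muscle, a tissue very rich in these complexes. Symbols do not always follow function: Ndufa4 encodes a protein now counted with complex IV, Cox7a2l encodes a factor that joins complexes III and IV, and Atp5sl encodes a complex I assembly protein.

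All mice were males aged 8 weeks on a mixed FVB/C57BL6 background, with n = 4 in each of 3 groups. Jrt;Sost-het mice carried Col1a1Jrt/+, a dominant splice mutation of the collagen type I alpha 1 gene that models severe osteogenesis imperfecta. The methods give these mice as Sost+/-, which their labels leave out. Jrt;Sost-ko mice were Col1a1Jrt/+ and Sost-/-, that is, they also lacked sclerostin, an inhibitor of bone formation, in every cell from conception, and their recombinant chromosome goes back to a single mouse. Mice of both Jrt groups came from the same crosses. WT mice carried neither allele and came from a parallel colony, and in comparisons with WT the colony cannot be told apart from the genotype. Shafts had been flushed of marrow before RNA was extracted, and polyadenylated RNA was sequenced. Mouse numbers name libraries only. Total counts on genes ranged from 24366061 to 44418863 per library. Values per mouse are CPM, that is, counts scaled to one library size after TMM normalization. In bulk RNA, fewer cells of a type and less RNA per cell cannot be told apart.

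Sost itself was at 0.571, 1.28, 0.508 and 0.326 CPM in Jrt;Sost-ko mice against 28.0, 34.6, 70.4 and 26.8 CPM in Jrt;Sost-het mice, as the labels have it. Osteoblast and osteocyte markers had counts in every library (14 and 10 genes, none at 0). Blood cell transcripts remained after flushing: 11 erythroid genes summed to 15875 to 31530 CPM and 12 neutrophil genes to 17066 to 31594 CPM per library. Skeletal muscle transcripts were present in unequal amounts. A list of 21 muscle genes (Acta1, Ckm, Myh4 and others, none of them a respiratory chain subunit) took 0.305%, 0.786%, 1.27% and 3.48% of the counts in Jrt;Sost-het mice 1 to 4, 1.19%, 0.257%, 1.55% and 0.0052% in Jrt;Sost-ko mice 1 to 4 and 0.333%, 0.0301%, 1.57% and 3.71% in WT mice 1 to 4. This is called the muscle share. Jrt;Sost-het mouse 4 and WT mouse 4 stood far above the rest, and Jrt;Sost-ko mouse 4 and WT mouse 2 were close to 0. WT mice 3 and 4 also carried epidermal transcripts (151 and 674 CPM over 10 genes, against 11.3 to 14.2 in the other 10 mice). Values without these libraries are given beside the main results.

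Levels between genes were compared per length, as the mean CPM over the 12 mice per kilobase of the main coding transcript. Complex V had the widest range. Atp5b, the catalytic beta subunit, was highest at 505 CPM per kilobase, and Atp5a1, the alpha subunit, had 290.1, whereas Atp5s, a small coupling protein, was lowest at 4.16. In complex IV the range ran from 394 for Cox4i1, the ubiquitous form of subunit 4, to 3.66 for Cox4i2, its second form, known for oxygen-dependent expression. Complex III subunits lay close together, from 72.3 for the Rieske iron-sulfur protein Uqcrfs1 to 207 for the hinge protein Uqcrh. In complex II, Sdha, the flavoprotein, had 99.2 and the membrane anchor Sdhc 26.8 CPM per kilobase. Complex I ran from 13.7 for the accessory subunit Ndufb2 to 226 for Ndufa4. Complex medians per kilobase were 63.5, 80.9, 117, 124 and 147 for complexes I to V. These levels depend on which transcript is taken as the main one.

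Together the 81 subunits had a summed level of 7264, 7647, 8605 and 10972 CPM in Jrt;Sost-het mice 1 to 4, 8115, 6946, 8194 and 8172 CPM in Jrt;Sost-ko mice 1 to 4 and 7804, 7768, 9468 and 10337 CPM in WT mice 1 to 4. Jrt;Sost-het mouse 4 was highest, followed by WT mice 4 and 3, and Jrt;Sost-ko mouse 2 was lowest. The 3 groups overlapped. The mouse highest for all subunits was also highest for each of the 5 complexes, and the lowest was lowest for each of the 5 (by summed CPM). Gene by gene, 66 of the 81 were highest in Jrt;Sost-het mouse 4 and 57 were lowest in Jrt;Sost-ko mouse 2.

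Complex I subunits summed to 2401 ± 519 CPM (mean ± SD, n = 4) for Jrt;Sost-het, 2130.3 ± 179 for Jrt;Sost-ko and 2444 ± 383 for WT mice. Complex II subunits, the smallest set, summed to 575 ± 108, 532 ± 40.9 and 587 ± 99.9 CPM in the same order. The complex III sums were 842 ± 179, 758 ± 61.6 and 854 ± 139.8 CPM. In each of these complexes the Jrt;Sost-ko mean was the lowest, by less than the SD of the Jrt;Sost-het mice. Complex IV subunits summed to 1466 ± 294, 1319 ± 95.2 and 1505 ± 199.96 CPM, and complex V subunits, the most abundant, to 3338 ± 568, 3118 ± 239 and 3454 ± 451 CPM. The SD of the Jrt;Sost-ko mice was the smallest of the 3 groups in all 5 complexes.

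**Figure D1:**
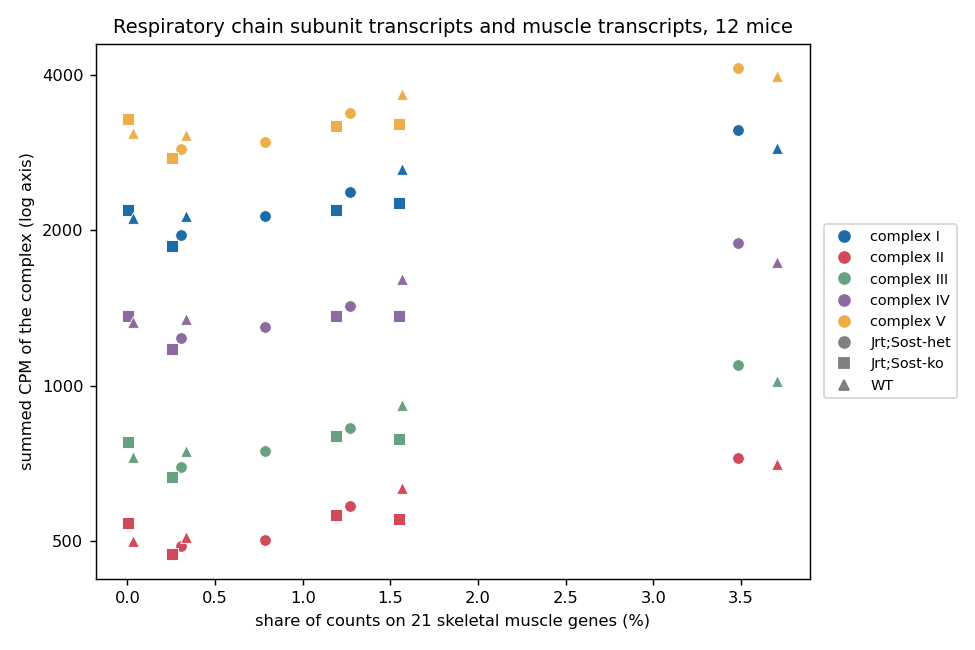
Summed CPM of the subunits of complexes I to V (log axis) in each of 12 mice against the share of counts on 21 skeletal muscle genes (%), with colour for the complex and marker shape for the group. The 2 mice with muscle shares of 3.48% and 3.71% were the highest in every complex, and the other 10 mice lay at or below 1.57%.

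The spread between mice narrowed when muscle transcripts were taken into account, by an amount that depended on their scale. The mean log2 CPM of the 81 subunits had a residual SD of 0.26 around the group means and of 0.087 when a common slope on the muscle share was added, over 12 mice. For complexes I, II, III, IV and V the residual SD changed from 0.23 to 0.10, 0.22 to 0.094, 0.24 to 0.10, 0.47 to 0.20 and 0.19 to 0.096. With the muscle score, the mean log2 CPM of the same 21 genes and the measure planned, in place of the share, the residual SD narrowed less, to 0.20 for all subunits and to 0.21, 0.19, 0.21, 0.22 and 0.18 for complexes I to V. Without its muscle isoforms complex IV went from 0.14 to 0.077 with the share and 0.14 with the score. The share was chosen after the data had been seen, and these are descriptions of the same 12 libraries. Most single subunits varied little: 73 of 81 differed by less than 2-fold between the highest and the lowest mouse (median 1.64-fold). Cox6a1 varied least (1.29-fold), with Cox8a (1.29-fold) and Atp5d (1.30-fold) next to it. The 3 that varied most were muscle isoforms of complex IV.

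Those isoforms are encoded on chromosome 7 in GRCm38 by Cox6a2 (ENSMUSG00000030785; chr7:128205435-128206387, minus strand), Cox7a1 (ENSMUSG00000074218; chr7:30184144-30186078, plus strand) and Cox8b (ENSMUSG00000025488; chr7:140898945-140900446, minus strand). They take the place of the ubiquitous forms of subunits 6a, 7a and 8, encoded by Cox6a1 (ENSMUSG00000041697; chr5:115345642-115348981, minus strand), Cox7a2 (ENSMUSG00000032330; chr9:79755361-79759878, minus strand) and Cox8a (ENSMUSG00000035885; chr19:7215153-7217616, minus strand). Cox6a2 was at 12.2, 29.6, 33.6 and 116 CPM in Jrt;Sost-het mice, 34.6, 7.29, 48.8 and 2.12 CPM in Jrt;Sost-ko mice and 12.2, 3.01, 62.6 and 107 CPM in WT mice, mice 1 to 4 of each group. Within each group the order of the mice was that of the muscle share, and the groups overlapped. Cox7a1 was at 4.69, 10.2, 9.67 and 43.2 CPM in Jrt;Sost-het mice, 15.6, 1.67, 12.1 and 0.424 CPM in Jrt;Sost-ko mice and 2.72, 0.957, 20.7 and 25.8 CPM in WT mice. Cox8b was at 6.05, 12.6, 12.2 and 59.0 CPM in Jrt;Sost-het mice, 15.6, 3.06, 20.1 and 0.522 CPM in Jrt;Sost-ko mice and 3.77, 0.410, 27.6 and 39.5 CPM in WT mice. All 3 were highest in Jrt;Sost-het mouse 4, Cox6a2 and Cox7a1 were lowest in Jrt;Sost-ko mouse 4 and Cox8b in WT mouse 2. In those 2 mice Cox8b rested on 16 and 12 counts. The highest mouse had 54.5 times the level of the lowest for Cox6a2, 102 times for Cox7a1 and 144 times for Cox8b.

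Cox6a1 was at 124, 112, 127 and 112 CPM in Jrt;Sost-het mice, 118, 124, 121 and 144 CPM in Jrt;Sost-ko mice and 129.9, 142, 133 and 118 CPM in WT mice. Cox8a was at 102, 100.4, 111 and 98.1 CPM in Jrt;Sost-het mice, 95.03, 95.6, 97.8 and 123 CPM in Jrt;Sost-ko mice and 109, 122, 108 and 98.4 CPM in WT mice. Both were highest in Jrt;Sost-ko mouse 4, the library with the least muscle RNA, and their groups overlapped. Cox7a2 was at 67.3, 72.1, 78.3 and 99.1 CPM in Jrt;Sost-het mice, 72.6, 64.5, 70.4 and 77.6 CPM in Jrt;Sost-ko mice and 77.7, 80.5, 83.8 and 87.9 CPM in WT mice, and was highest in Jrt;Sost-het mouse 4.

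**Figure D2:**
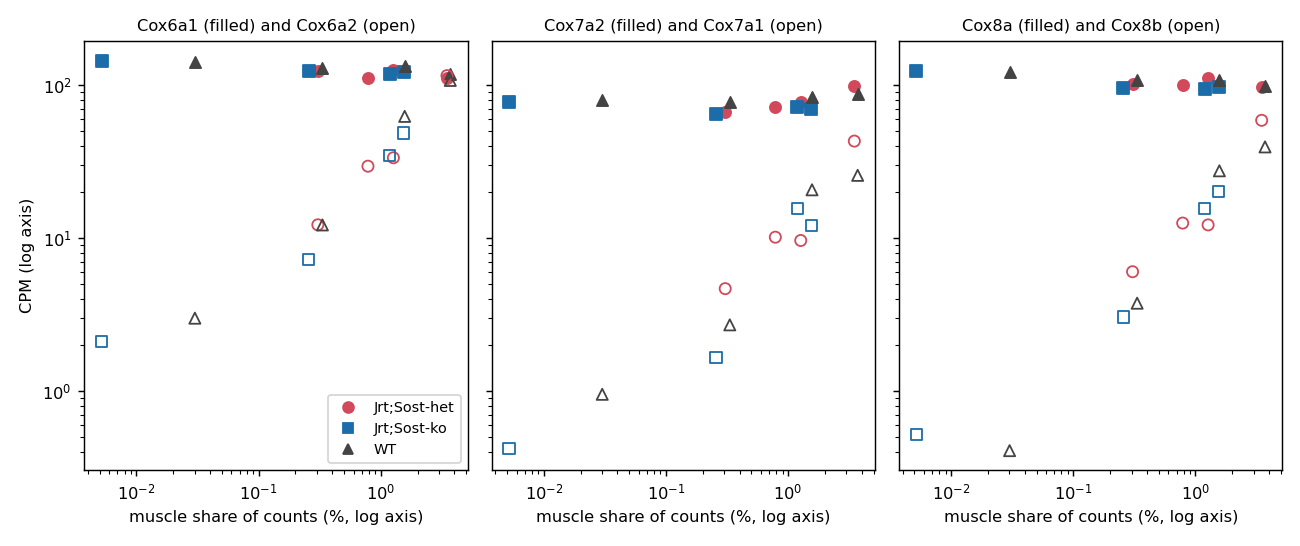
CPM (log axis) of the ubiquitous isoform (filled) and the muscle isoform (open) of complex IV subunits 6a, 7a and 8 in 12 mice against the muscle share (%, log axis), with colour and marker for the group. Cox6a2, Cox7a1 and Cox8b spanned 54.5-fold, 102-fold and 144-fold, whereas Cox6a1 and Cox8a each spanned 1.29-fold.

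The 250 bases upstream of the start site are shown for these isoform genes, because their levels moved so differently across the mice (RefSeq, GRCm38.p6, 5′ to 3′ on the gene's own strand). Cox6a2 is named only. Capitals mark matches, on either strand, to the search words that follow.
Cox6a1 chr5:115348959-115349208 (minus strand): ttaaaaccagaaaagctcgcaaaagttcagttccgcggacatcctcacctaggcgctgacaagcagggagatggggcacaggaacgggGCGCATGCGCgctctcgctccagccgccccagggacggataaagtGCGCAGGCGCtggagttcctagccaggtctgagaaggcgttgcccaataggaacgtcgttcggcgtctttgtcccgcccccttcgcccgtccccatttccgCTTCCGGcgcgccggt
Cox7a2 chr9:79759854-79760103 (minus strand): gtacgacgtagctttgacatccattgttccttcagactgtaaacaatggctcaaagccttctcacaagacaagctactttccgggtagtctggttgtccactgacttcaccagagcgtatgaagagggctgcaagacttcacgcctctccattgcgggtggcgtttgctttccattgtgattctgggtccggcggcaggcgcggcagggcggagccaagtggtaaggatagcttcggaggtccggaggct
Cox7a1 chr7:30183921-30184170 (plus strand): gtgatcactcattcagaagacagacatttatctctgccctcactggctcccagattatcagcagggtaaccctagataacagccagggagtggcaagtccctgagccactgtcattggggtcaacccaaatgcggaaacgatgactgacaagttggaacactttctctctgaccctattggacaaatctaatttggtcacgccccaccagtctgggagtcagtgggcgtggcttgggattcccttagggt
Cox8a chr19:7217617-7217866 (minus strand): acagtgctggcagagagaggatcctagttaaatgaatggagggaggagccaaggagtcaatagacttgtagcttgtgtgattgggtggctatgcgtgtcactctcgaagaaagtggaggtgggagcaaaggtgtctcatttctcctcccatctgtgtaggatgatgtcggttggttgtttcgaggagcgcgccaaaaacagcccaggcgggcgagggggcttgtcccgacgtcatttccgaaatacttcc
Cox8b chr7:140900447-140900696 (minus strand): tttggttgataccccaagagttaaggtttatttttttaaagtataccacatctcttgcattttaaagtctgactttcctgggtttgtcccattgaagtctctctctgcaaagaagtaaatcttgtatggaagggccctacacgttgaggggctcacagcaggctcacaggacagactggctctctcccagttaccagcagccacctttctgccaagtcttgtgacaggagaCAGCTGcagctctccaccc

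A search for 7 words was made on both strands in RefSeq windows from 250 bases before to 50 after a start site. The table held 74 windows for 68 of the 81 subunit genes and 32851 in all. No word contains another. The core recognised by NRF1 (GCGC, any base, then TGCGC), a regulator of nuclear genes for mitochondrial proteins, was in 18 of 74 (24.3%), against 4.6% of all windows. CCGGAAG, bound by ETS factors such as GABP, was in 16 of 74 (21.6%), against 8.86%. AAGATGGC, the YY1 word, was in 12 of 74 (16.2%), against 2.75%. TCAAGGTCA, bound by estrogen-related receptors, was in 2 of 74 (2.7%), against 0.423%. By contrast, 3 words were less common than among all windows. CAGCTG, an E-box of the kind bound by muscle regulators, was in 6 of 74 (8.11%), against 16.3%, the MEF2 word (CTA, any 4 bases, then TAG) in 1 of 74 (1.35%), against 3.69% and TATAAA in 7 of 74 (9.46%), against 13.6%. In the windows printed, Cox6a1 held the NRF1 word starting 162 bases upstream and, on the other strand, 117 bases upstream and the ETS word 16 bases upstream, Cox8b held the E-box 19 bases upstream, and the other 3 held none of the words before the start site. Among the 21263 windows of protein-coding genes the NRF1, ETS and YY1 words were in 6.38%, 11.6% and 3.05%. The word of estrogen-related receptors was in 0.334% of these, the E-box in 15.6%, the MEF2 word in 3.47% and TATAAA in 12.6%. The median GC content was 57.5% in the subunit windows, 56.3% in windows of protein-coding genes and 52.7% in all windows. A match is only a match of letters.

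The comparison within the Jrt colony, Jrt;Sost-ko mice set against Jrt;Sost-het mice, asks what the loss of sclerostin did in the osteogenesis imperfecta background. No subunit of any complex passed the test (edgeR's quasi-likelihood test, Benjamini-Hochberg adjusted p under 0.05 over all genes tested): 0 of 81, where 0.00597% of all genes tested passed. DESeq2 called 0 as well (0.024% of all genes). At an unadjusted p under 0.05 there were 1 of 81 (Atp5l) in edgeR, against 5.02% of all genes, and 2 in DESeq2 (Cox6c and Atp5l), against 3.46%. Nevertheless 79 of 81 had a log2 fold change below 0, against 49.6% of all genes, with a median of -0.14 (all genes 0.0013). Subunit levels move together across mice, so 79 genes are not 79 separate observations. All 21 muscle genes were below 0 too, with a median of -0.98. Other cell lists moved as well: 7 of 7 chondrocyte genes tested were below 0 (median -1.72). Above 0 were 12 of 14 osteoblast genes (median 0.29) and 11 of 11 erythroid genes tested (median 0.097). EdgeR called 0 genes of these 3 lists, and their part in the subunit values was not tested. No subunit gene separated the groups completely (lower 1.4% and higher 1.79% of all genes), and the 95% interval of the fold change included 0 for 80 of 81 and lay within 1 log2 unit of 0 for 78.

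By complex, 36 of 36 complex I genes (median -0.16), 4 of 4 in complex II (-0.12), 8 of 8 in complex III (-0.16), 14 of 16 in complex IV (-0.15) and 17 of 17 in complex V (-0.13) had values below 0. The lowest in complex I was the accessory subunit Ndufc1, with 22.5, 16.6, 25.5 and 20.9 CPM in Jrt;Sost-ko mice against 20.5, 21.99, 25.9 and 41.8 CPM in Jrt;Sost-het mice (-0.37 ± 0.23, log2 ± SE, edgeR adjusted p = 0.901). Jrt;Sost-het mouse 4 was far above its group for this gene. In complex II it was the iron-sulfur subunit Sdhb (-0.16 ± 0.18) and in complex III the small subunit Uqcr10 (-0.22 ± 0.17). In complex V the lowest was Atp5k, the membrane subunit e (-0.25 ± 0.16), close to Atp5l, subunit g, which was at 51.7, 49.9, 55.0 and 56.0 CPM in Jrt;Sost-ko and 54.9, 59.6, 60.1 and 77.3 CPM in Jrt;Sost-het mice (-0.25 ± 0.11, edgeR adjusted p = 0.901). The groups overlapped through Jrt;Sost-het mouse 1. In complex IV the muscle isoforms had the lowest values, -1.20 ± 0.99 for Cox8b, -1.19 ± 1.001 for Cox7a1 and -1.04 ± 0.92 for Cox6a2, with edgeR adjusted p from 0.904 to 0.902. The 2 genes above 0 were Cox6a1 (0.099 ± 0.076) and Cox7a2l (0.068 ± 0.099).

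The shared direction was lost without 1 library. Without Jrt;Sost-het mouse 4, 41 of 81 subunits were below 0 and the median was -0.0033, whereas leaving out any other single mouse left 73 to 78 below 0. Without the 3 muscle isoforms, 76 of 78 were below 0 with a median of -0.14. With the muscle share held constant in a fit of all 12 mice, 53 of 81 were below 0, the median was -0.029, and the complex medians were -0.035, 0.022, -0.012, -0.056 and 0.0050 for I to V. With the mean log2 CPM of the muscle genes held instead, 64 of 81 were below 0 and the median was -0.055 (77 of 81 in a fit of these 8 mice alone). In both fits edgeR called 0 of 81 (share held 0.00555%, score held 0.00555% of all genes), and at an unadjusted p under 0.05 there were 2 (Cox6c and Atp5l) and 0, against 6.24% and 6.75% of all genes. The muscle isoforms then stood at -0.28 for Cox8b, -0.33 for Cox7a1 and -0.26 for Cox6a2 (share held).

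**Figure D3:**
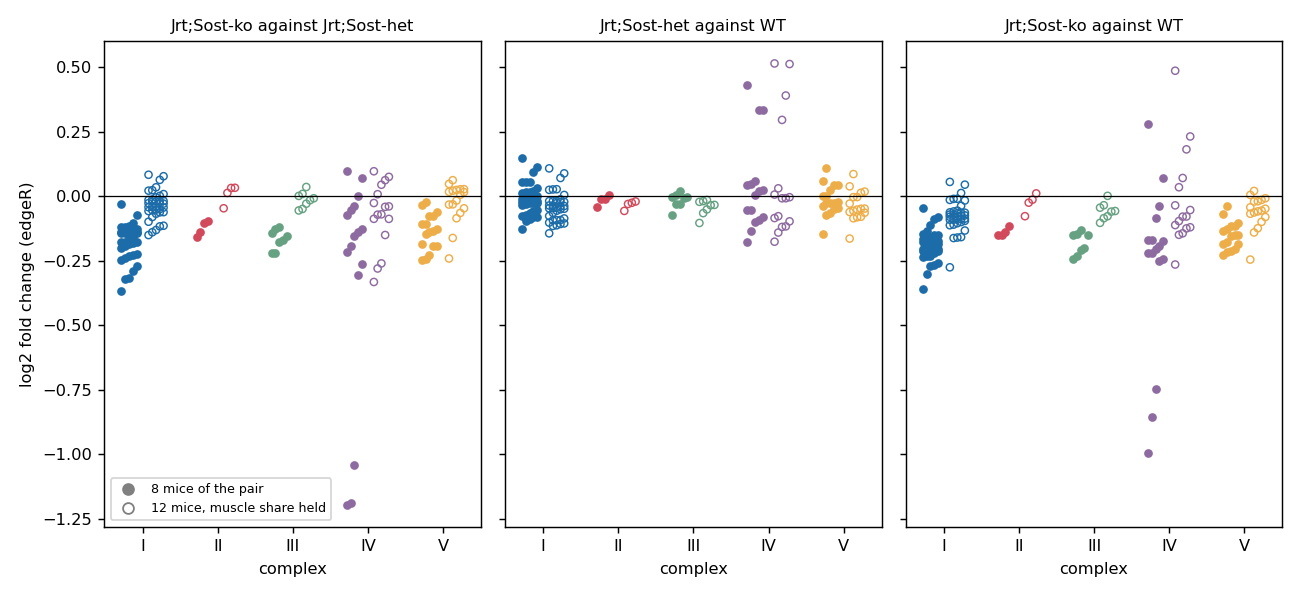
Log2 fold change (edgeR) of each of the 81 subunits by complex in the 3 comparisons, from the 8 mice of the pair (filled) and from all 12 mice with the muscle share held constant (open). The filled points of Jrt;Sost-ko against Jrt;Sost-het and against WT lie below 0 for 79 of 81 genes, the open points for 53 and 69 of 81.

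Jrt;Sost-ko mice were next compared with WT mice. EdgeR called 0 of 81 subunits (0.00583% of all genes), and DESeq2 called 0 (0.0589%). At an unadjusted p under 0.05 there were 7 of 81 in edgeR, against 3.89% of all genes, and 9 in DESeq2, against 3.39%. The median was -0.18, and 79 of 81 genes were below 0 (50.9% of all genes). All 21 muscle genes were below 0 (median -0.93), as were 12 of 12 neutrophil genes (median -0.17), and 14 of 14 osteoblast genes were above 0 (median 0.45). Of these genes edgeR called 0, with 0, 0 and 2 at an unadjusted p under 0.05, and their part in the subunit values was not tested. Both comparisons of Jrt;Sost-ko mice share the 4 Jrt;Sost-ko libraries. Complex medians were -0.20, -0.14, -0.18, -0.20 and -0.15.

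A total of 4 subunits were lower in every Jrt;Sost-ko mouse than in every WT mouse, against 1.11% of all genes, and 0 were higher, against 1.29%. Ndufb8, an accessory subunit of the membrane arm of complex I, was at 79.5, 77.3, 89.8 and 92.0 CPM in Jrt;Sost-ko and 95.9, 95.7, 119 and 125 CPM in WT mice (-0.36 ± 0.11). It had the lowest value in complex I. Ndufb3, of the same arm, was at 50.5, 47.4, 52.5 and 54.7 CPM in Jrt;Sost-ko and 55.4, 55.1, 61.7 and 64.3 CPM in WT mice (-0.20 ± 0.074). The CPM of Cox7a2 and Atp5l in Jrt;Sost-ko mice are given above. WT mice had 77.7, 80.5, 83.8 and 87.9 CPM of Cox7a2 (-0.21 ± 0.070) and 56.2, 57.5, 62.6 and 66.4 CPM of Atp5l (-0.19 ± 0.072). The gaps between the groups were small beside the spread within them. For each of the 4 the exact two-sided permutation p was 0.0286, the smallest that 4 against 4 mice allow. Groups that do not overlap always give this value, so it adds nothing to the choice of these genes. The edgeR adjusted p of each was 0.9996, so the difference did not pass over all genes. Without WT mice 3 and 4 the log2 values of Ndufb8, Ndufb3, Cox7a2 and Atp5l were -0.17, -0.10, -0.15 and -0.092. With the muscle share held, they were -0.28, -0.13, -0.15 and -0.12. Of these genes Atp5l has 4 pseudogene copies, and Gm20538, on the same strand, shares exon bases with Ndufb8, so their counts are uncertain.

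The lowest values in the other complexes were Sdhb in complex II (-0.15 ± 0.17), Uqcr11 in complex III (-0.24 ± 0.15), Cox6a2 in complex IV (-0.995 ± 1.14) and Atp5s in complex V (-0.23 ± 0.15). Cox7a1 (-0.75 ± 1.19) and Cox8b (-0.86 ± 1.27) had large values with large errors. Above 0 stood Cox4i2 (0.28 ± 0.32) and Cox7a2l (0.071 ± 0.12). No edgeR adjusted p of these genes was below 0.9996. Leaving out any single mouse left 76 to 80 of 81 below 0. Without both WT mice 3 and 4, 30 of 81 subunits were below 0 and the median was 0.026. With the muscle share held, 69 of 81 were below 0 and the median was -0.069, and with the muscle score held these were 76 and -0.12. Both fits called 0 of 81 (share held 0.00555%, score held 0.00555% of all genes), with 3 each at an unadjusted p under 0.05 (Ndufa11, Ndufb8 and Cox6b2 with the share, Ndufb8, Cox8a and Cox6b2 with the score, against 9.97% and 10.6% of all genes).

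The third pair, Jrt;Sost-het against WT, asks how mice with the Col1a1 mutation and a Sost allele left differed from mice with neither change. EdgeR and DESeq2 each called 0 of 81, against 0% and 0.0132% of all genes. Both had 0 subunits at an unadjusted p under 0.05, against 2.14% and 1.96% of all genes. No subunit separated the groups (lower 0.799% and higher 0.739% of all genes). The median was -0.017, with 52 of 81 below 0 (48.7% of all genes). Complex medians were -0.018, -0.011, -0.0064, 0.011 and -0.025. The extremes of complex I were Ndufb8 (-0.13 ± 0.14) and Ndufc1 (0.15 ± 0.28), those of complex II Sdha (-0.041 ± 0.16) and Sdhb (0.0057 ± 0.22), and those of complex III Uqcr11 (-0.073 ± 0.21) and Uqcrq (0.018 ± 0.22). Complex IV ran from the testis form Cox6b2 (-0.18 ± 0.13) to Cox7a1 (0.43 ± 1.014), and complex V from Atp5g2 (-0.15 ± 0.11) to Atp5sl (0.11 ± 0.13). Each group held a mouse with a muscle share of at least 3.48%, and the median moved with these libraries: it was -0.17 without Jrt;Sost-het mouse 4, 0.071 without WT mouse 4 and 0.19 without WT mice 3 and 4. The subunits below 0 then numbered 79, 18 and 7 of 81. With the muscle share held the median was -0.039, 64 of 81 were below 0 and edgeR called 0 of 81 (0% of all genes), with 1 at an unadjusted p under 0.05 (Cox6a1, 5.18% of all genes). With the muscle score held the median was -0.061, 69 of 81 were below 0, 0 of 81 were called (0.0166% of all genes) and 0 had an unadjusted p under 0.05 (3.73% of all genes).

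The slope of each subunit on the muscle transcripts was then tested within groups in all 12 mice. On the muscle score (mean log2 CPM of the 21 muscle genes) edgeR called 5 of 81 subunits, 3 rising against 9.13% of all genes and 2 falling against 5.72%. At an unadjusted p under 0.05 there were 26 of 81, against 32.7% of all genes. All 5 called belong to complex IV. The muscle isoforms Cox8b, Cox7a1 and Cox6a2 rose by 0.86 ± 0.065, 0.77 ± 0.071 and 0.69 ± 0.060 (log2 ± SE per unit of score), and the ubiquitous isoforms Cox8a and Cox6a1 fell, with slopes of -0.040 ± 0.0084 and -0.033 ± 0.0083 (edgeR adjusted p = 0.0104 and 0.023). The score spans a wide log range because of Jrt;Sost-ko mouse 4, whose score was 0.724 against 3.41 to 10.4 in the others. Without that mouse 61 of 81 were called. Without WT mouse 2, the next lowest, 3 were. Cox6a1 missed the threshold without Jrt;Sost-ko mouse 4, WT mouse 2 or WT mouse 4 (edgeR adjusted p = 0.0938, 0.0927 and 0.092), and Cox8a without the first or the second of these (0.0928 and 0.063, edgeR adjusted p). Both missed it without WT mice 3 and 4 (0.104 and 0.0842, edgeR adjusted p), and Cox6a1 also with no filter on low counts (0.0566, edgeR adjusted p). In these fits the slopes of Cox6a1 stayed between -0.035 and -0.029 and those of Cox8a between -0.042 and -0.031.

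On the linear scale, as log2 change per 1% of counts on muscle genes, 68 of 81 subunits rose and 0 fell (all genes tested 9.95% and 8.21%), with a median slope of 0.15 against 0.00016 for all genes. At an unadjusted p under 0.05 there were 78 of 81, against 33% of all genes. This scale was chosen after the data had been seen. Complex I had 34 of 36 rising (median 0.16), complex II 4 of 4 (0.14), complex III 8 of 8 (0.18), complex IV 10 of 16 (0.15) and complex V 12 of 17 (0.12). Without the muscle isoforms 65 of 78 rose. The counts depend on the muscle-rich libraries: without Jrt;Sost-het mouse 4 there were 55, without WT mouse 4 61, without WT mice 3 and 4 31, and without Jrt;Sost-het mouse 4 and WT mouse 4 14 of 81.

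The 10 largest rises began with the muscle isoforms Cox8b (1.28 ± 0.27), Cox6a2 (1.21 ± 0.22) and Cox7a1 (1.20 ± 0.26). Without WT mice 3 and 4 these 3 slopes were 1.35, 1.30 and 1.31 and missed the threshold (edgeR adjusted p = 0.0695, 0.0543 and 0.0702). Far below the isoforms came Ndufa5 (0.32 ± 0.033), Atp5g1 (0.28 ± 0.034), Ndufc1 (0.27 ± 0.034), Ndufb5 (0.24 ± 0.022), Ndufa12 (0.23 ± 0.034), Ndufa13 (0.22 ± 0.037) and Sdhb (0.22 ± 0.028). Ndufa5, Ndufc1, Ndufb5, Ndufa12 and Ndufa13 are accessory subunits of complex I. Atp5g1 is 1 of 3 genes for the same c-ring subunit of ATP synthase: Atp5g3 rose by 0.16 ± 0.027, and Atp5g2 had 0.069 ± 0.028 (edgeR adjusted p = 0.111). Whether the 3 slopes differ was not tested.

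Every one of the 20 core subunits listed rose. In complex I most of these carry the flavin or iron-sulfur clusters, and the slopes included Ndufs8 (0.10 ± 0.030), Ndufv1 (0.13 ± 0.026), Ndufs1 (0.16 ± 0.020), Ndufs3 (0.17 ± 0.025), Ndufv2 (0.18 ± 0.022) and Ndufs7 (0.19 ± 0.027). In complex II, Sdhd (0.10 ± 0.024), Sdhc (0.14 ± 0.023), Sdha (0.15 ± 0.021) and Sdhb (0.22 ± 0.028) all rose. The core of complex III had Uqcrc1 (0.13 ± 0.023), Uqcrc2 (0.15 ± 0.023) and Uqcrfs1 (0.18 ± 0.027). In complex IV, where the catalytic subunits come from mtDNA, the nuclear subunits gave Cox4i1 (0.090 ± 0.026), Cox5b (0.11 ± 0.026) and Cox5a (0.19 ± 0.028). The rotor and catalytic head of ATP synthase gave Atp5b (0.10 ± 0.026), Atp5a1 (0.12 ± 0.024) and Atp5c1 (0.16 ± 0.023). Slopes of the core subunits lay between 0.090 and 0.22 and had a median of 0.15.

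The 13 that did not pass were Ndufa3 and Ndufb7 in complex I, 6 in complex IV and 5 in complex V (Atp5d, Atp5g2, Atp5h, Atp5s and Atp5sl). The complex I and V genes had slopes from -0.028 to 0.095. Those of complex IV were Cox6a1 (-0.059 ± 0.022), Cox8a (-0.060 ± 0.027), Cox7a2 (0.086 ± 0.027), Cox6b2 (-0.079 ± 0.035), Cox4i2 (0.21 ± 0.095) and Cox7a2l (0.0020 ± 0.043). All 6 are isoforms or relatives of other subunits, and Cox6a1, Cox7a2 and Cox8a among them are the ubiquitous forms. Of other main forms, Cox4i1 and Cox6b1 (0.13 ± 0.027) rose. Cox6b2 was at 19.02, 24.6, 21.1 and 19.4 CPM for Jrt;Sost-het, 20.4, 18.6, 20.6 and 22.1 for Jrt;Sost-ko and 29.0, 24.1, 23.0 and 19.6 for WT mice. Cox7a2l was at 101, 95.8, 77.8 and 91.0, 101, 90.8, 84.9 and 107 and 106, 79.4, 78.0 and 103 CPM in the same order. Neither followed the order of the muscle share.

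**Figure D4:**
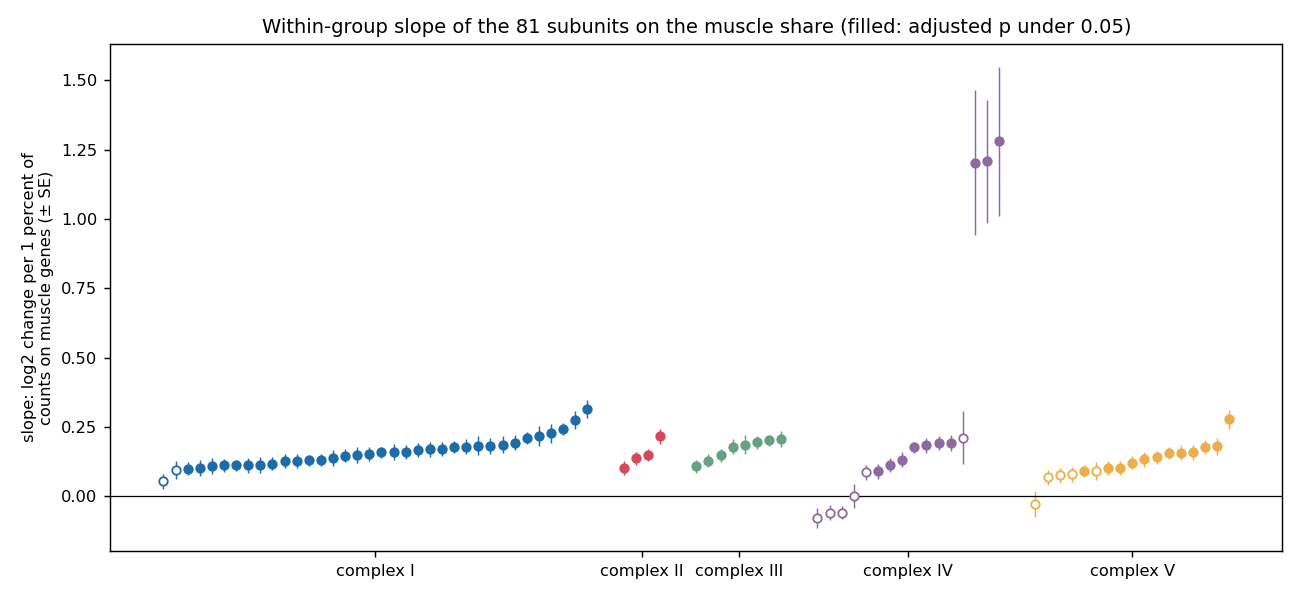
Within-group slope (log2 change per 1% of counts on muscle genes, ± SE, edgeR, 12 mice) of each of the 81 subunits, ordered by slope within complexes I to V, filled where the adjusted p was under 0.05. Cox8b, Cox6a2 and Cox7a1 lie between 1.20 and 1.28, and all others between -0.079 and 0.32.

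Markers of other cells moved along the same axis, and their part in these slopes was not tested. On the muscle share 8 of 10 epidermal genes rose, as did 3 of 4 genes tested from a brown adipocyte list. That list (summed level 3.14 to 17.7 CPM over the 12 mice) includes Ppargc1b and Cpt1b, which are not particular to brown adipocytes. All 11 erythroid genes tested fell (median -0.22), from a summed 31530.3 CPM in WT mouse 1 to 15875 in Jrt;Sost-het mouse 4, and 4 of 12 neutrophil genes fell. Of 13 osteoclast genes 2 fell and 0 rose. None of 14 osteoblast genes and none of 10 osteocyte genes passed (0 called in edgeR, with 3 and 2 at an unadjusted p under 0.05). Muscle shares were lowest in Jrt;Sost-ko mouse 4, WT mouse 2, Jrt;Sost-ko mouse 2, Jrt;Sost-het mouse 1 and WT mouse 1. In this order the shares were 0.0052%, 0.0301%, 0.257%, 0.305% and 0.333%. The summed respiratory chain subunits were 8172, 7768, 6946, 7264 and 7804 CPM.

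The mtDNA-encoded subunits, 13 genes of complexes I, III, IV and V, were read from the same libraries. Among them mt-Co2, mt-Co3, mt-Atp6 and mt-Nd6 stayed at or below 79.8 CPM in every mouse while mt-Co1 ranged from 4924 to 14877 CPM. The summed level was 13915, 16737, 15251 and 38069.6 CPM in Jrt;Sost-het mice 1 to 4, 17849, 13656, 18495 and 11606 CPM in Jrt;Sost-ko mice and 13390.3, 11055, 21585 and 25919 CPM in WT mice. As with the nuclear subunits, Jrt;Sost-het mouse 4 was highest and the groups overlapped. On the muscle share 10 of 12 tested rose, with a median slope of 0.38, from 0.30 ± 0.032 for mt-Atp6 to 0.52 ± 0.057 for mt-Nd2. The genes mt-Nd3 and mt-Atp8, both under 1 CPM in every mouse, did not pass, and mt-Nd4l was too low to test. That count was 9 without Jrt;Sost-het mouse 4 and WT mouse 4 and 10 without WT mice 3 and 4 or any single mouse. On the muscle score 10 of 12 rose as well, but 0 did without WT mouse 2 or without WT mice 3 and 4, 1 without WT mouse 4 and 8 to 10 without any other single mouse. None was called between groups: edgeR 0 of 11, 11 and 12 tested, with 0 at an unadjusted p under 0.05 in each of the 3 comparisons, and log2 medians of -0.45, 0.19 and -0.23. Transcripts of mtDNA carry short tails, so their level depends on the selection of polyadenylated RNA. Copies of the mtDNA genes elsewhere in the genome were not searched for, and whether reads were lost to such copies was not tested.

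**Figure D5:**
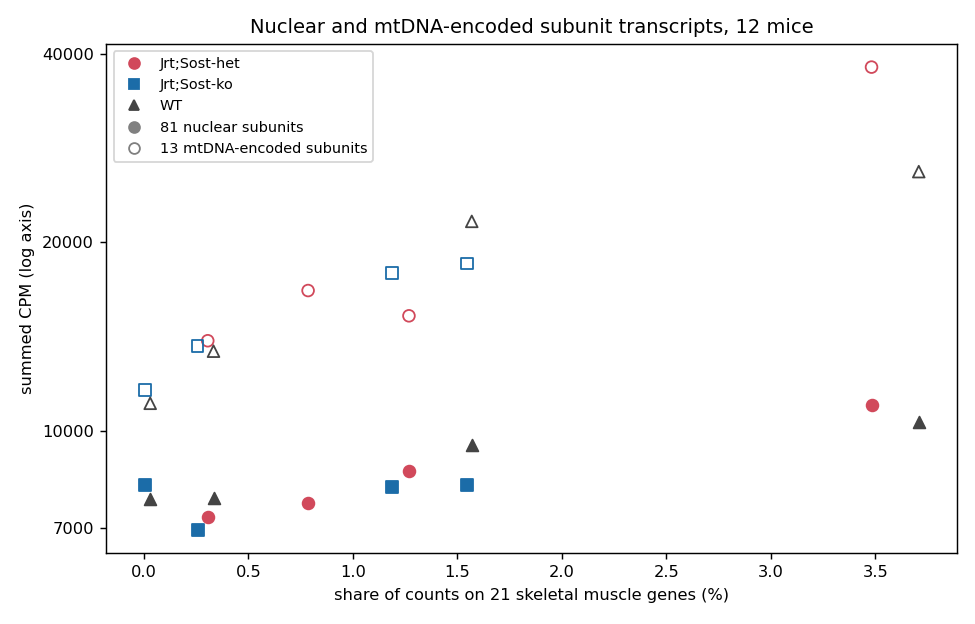
Summed CPM (log axis) of the 81 nuclear subunits (filled) and of 13 mtDNA-encoded subunits (open) in 12 mice against the muscle share (%), with colour and marker for the group. Jrt;Sost-het mouse 4 had the highest value of both, 10972 and 38069.6 CPM.

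Of other pathway genes, the 15 of the tricarboxylic acid cycle and pyruvate dehydrogenase, which feed the chain, had 13 rising with the muscle share (median slope 0.15) and medians of -0.16, -0.00067 and -0.16 in the 3 comparisons. Among subunits and relatives whose symbols lie outside the pattern, Ndufab1 of complex I rose by 0.16 ± 0.023, Cyc1 of complex III by 0.14 ± 0.028 and the electron carrier Cycs by 0.25 ± 0.026. Ndufa4l2, a relative of Ndufa4, had 0.21 ± 0.089 and did not pass, and Atpif1, the inhibitor of ATP synthase, fell (-0.15 ± 0.025). Of 43 assembly factors tested 15 rose (median 0.061). Of 15 regulators of mitochondrial biogenesis 4 rose and 3 fell. Ppargc1a, a coactivator highly active in muscle, rose by 0.80 ± 0.19, and Ppargc1b, Esrra and Tfb2m rose by 0.21 ± 0.053, 0.11 ± 0.024 and 0.13 ± 0.027, whereas Nrf1, Yy1 and Gabpb1 fell, with slopes of -0.12 ± 0.019, -0.077 ± 0.015 and -0.087 ± 0.026. These 7 were named after their values had been seen. In the 3 group comparisons edgeR called 0 genes of each of these lists.

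In GENCODE M21 (GRCm38) all 81 subunit genes are annotated as protein coding, on 19 chromosomes. A total of 26 share exon bases with another gene, 24 of them with a gene on the opposite strand, and the strand setting of the counting is not given in the sources used here. For 15 a copy with at least 97% identity over at least 100 bases is annotated as a pseudogene. Reads that fit both places may not have been counted. Atp5l had the most copies, with 4, and Uqcrb had 3. Neither the shared exon bases nor the copies were tested in the counts.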

How the data were processed

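RNA from tibia shafts of 12 mice, 1 library each, had been sequenced. Reads had been mapped by the authors with STAR (genome GRCm38), and the raw counts per Ensembl gene that they deposited as a matrix were used here. The counting tool, strand setting and annotation release are not given in the sources used here. Result tables of the authors' own comparisons and per-sample copies of the counts were not used.

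Genes were tested with edgeR 4.0.16 (R 4.3.3; TMM scaling, filterByExpr, quasi-likelihood test, Benjamini-Hochberg over all genes passing the filter), fitted to the 8 mice of each of 3 pairs. Slopes and muscle covariates were fitted to all 12 mice with group terms. The muscle score was the mean log2 CPM of 21 muscle genes (prior count 2), the muscle share their percent of counts. DESeq2 1.42.0, other filters and scalings, and leaving out mice were alternatives. The edgeR fit of a pair and the edgeR slope on the muscle share were tested on simulated counts, the other steps were not. Exact permutation tests compared single genes between groups of 4. Positions came from GENCODE M21, promoters from RefSeq (GRCm38.p6), pseudogene copies from BLAST+ 2.17.0. P-values of edgeR and DESeq2 weigh a difference or slope against the spread between the mice sampled. Permutation p-values rank a difference among the arrangements of the same mice.

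For each comparison the text names the genes with the largest rise and fall in each complex, those whose groups do not overlap, and the muscle isoforms with their partners. For slopes it names the 10 largest rises, the core subunits (1 of them is not reported here) and the genes not called. The subunits and all lists were chosen with earlier results of these data known. The precision of Cox8b, Cox7a1 and Cox6a2 is limited by counts as low as 12, 13 and 65.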

Additional observations from a re-analysis of the deposited data

Results flagged for a closer look

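Among the sets of 4 mice tested, 14 of 168 held a mouse that stood apart by Dixon's test at the 95% level. Chance flags about 1 in 20 groups, and over every subunit in every group 10 of 243 (4.12%) stood apart. Jrt;Sost-het mouse 4, with a muscle share of 3.48%, stood above the rest of its group for Cox7a1 at 43.2 CPM, against 4.69 to 10.2 CPM in the others, Cox8b at 59.0 CPM, against 6.05 to 12.6 CPM, Ndufb2 at 49.9 CPM, against 30.5 to 33.7 CPM and Uqcrh at 149 CPM, against 103 to 110.0 CPM. The same mouse had 38069.6 CPM, against 13915 to 16737 CPM summed over the mtDNA-encoded subunits. Jrt;Sost-ko mouse 2 stood below its group for Sdhc at 72.0 CPM, against 83.0 to 84.7 CPM in the others, Uqcrc2 at 131 CPM, against 155 to 157 CPM and Uqcrfs1 at 77.4 CPM, against 96.6 to 98.6 CPM. Its sum over all subunits was 6946 CPM, against 8115 to 8194 CPM, or 6934 CPM, against 8049 to 8168 CPM without the muscle isoforms. Its complex III sum was 666 CPM, against 777 to 799 CPM, and its complex IV sum 1176 CPM, against 1365 to 1369 CPM. Its muscle share was 0.257%, and Jrt;Sost-ko mouse 4, with a share of 0.0052%, had a sum of 8172 CPM. That last mouse stood above its group for Cox8a at 123 CPM, against 95.03 to 97.8 CPM. WT mouse 4 did so for Atp5sl at 23.5 CPM, against 20.9 to 21.1 CPM.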

How the results depend on the processing

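Between groups, 0 of 81 subunits were called by edgeR or, as one alternative, DESeq2 under every alternative run, 19 between the Jrt groups, 21 for Jrt;Sost-het against WT and 20 for Jrt;Sost-ko against WT. These were DESeq2 and its size factors, no or a stricter filter on low counts, all 12 mice in one fit, scaling without muscle, erythroid and neutrophil genes, robust estimation, the muscle covariates, and leaving out mice. At an unadjusted p under 0.05 there were at most 9 subunits (without Jrt;Sost-het mouse 1, against 6.29% of all genes), 5 (without WT mice 3 and 4, against 19.8%) and 17 (without WT mouse 1, against 3.15%) in the 3 comparisons. The median log2 fold change of the subunits ranged from -0.24 to -0.0033, -0.17 to 0.19 and -0.23 to 0.026. No paired analysis was made, because the mouse numbers were given in accession order and tie no mouse of one group to a mouse of another. The count matrix also carries animal numbers, which interleave the groups. What order they follow is not stated, no fit used them, and whether muscle shares go with them was not tested. Slopes on the muscle score depended most on the settings. Called subunits numbered 9 with DESeq2, 68 with the linear muscle share in place of the score, 3 without WT mice 3 and 4, 2 when the muscle isoforms were left out of the list, and 3 to 61 when single mice were left out. Slopes on the muscle share, a scale chosen after seeing the data like every fit that uses it, gave 31 without WT mice 3 and 4, 14 without Jrt;Sost-het mouse 4 and WT mouse 4, and 55 to 71 when single mice were left out. Fewer mice entered those fits, and other causes were not tested.

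Single genes, none of them called, changed sign as follows (log2, the cause was not tested). In the comparison of both Jrt groups, with the muscle score held in 12 mice, Sdhb 0.020 turned sign. With the muscle share held in 12 mice, Sdhb 0.031 did. With single mice left out of the same comparison, the range was Sdhb -0.26 to 0.046. In the comparison of Jrt;Sost-het with WT mice, with the muscle score held in the pair, Cox6a2 -0.12, Ndufc1 -0.0026, Sdhb -0.12 and Uqcrq -0.11 turned sign. With the muscle score held in 12 mice, Cox6a2 -0.062, Sdhb -0.061 and Uqcrq -0.042 did. With Jrt;Sost-het mouse 4 and WT mouse 4 left out, Cox6a2 -0.057, Cox7a1 -0.0071, Cox8b -0.056, Sdhb -0.069 and Uqcrq -0.086 did. With WT mice 3 and 4 left out, Ndufb8 0.069, Sdha 0.20 and Uqcr11 0.21 did. With the muscle share held in 12 mice, Sdhb -0.021 and Uqcrq -0.015 did. With single mice left out of the same comparison, the range was Atp5sl -0.029 to 0.19, Cox6a2 -0.89 to 0.87, Cox7a1 -0.63 to 1.04, Cox8b -0.81 to 1.07, Ndufc1 -0.13 to 0.32, Sdha -0.17 to 0.058, Sdhb -0.20 to 0.13, Uqcr11 -0.27 to 0.025 and Uqcrq -0.21 to 0.14. In the comparison of Jrt;Sost-ko with WT mice, with the muscle share held in 12 mice, Cox6a2 0.034, Cox7a1 0.18, Cox8b 0.23 and Sdhb 0.010 turned sign. With WT mice 3 and 4 left out, Cox6a2 1.61, Cox7a1 2.01, Cox8b 2.22, Sdhb 0.18 and Uqcr11 0.028 did. With the muscle score held in 12 mice, Cox7a1 0.0021 and Cox8b 0.19 did. With the muscle score held in the pair, Cox8b 0.18 did.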
